A study of Mus musculus with 65 samples.

Results

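The nuclear-encoded subunits of the mitochondrial respiratory chain were taken from the gene count table as all rows whose symbol begins with Ndufa, Ndufb, Ndufc, Ndufs or Ndufv and a digit (complex I), is Sdha, Sdhb, Sdhc or Sdhd (complex II), begins with Uqcr (complex III), begins with Cox4 to Cox8 and a letter (complex IV) or begins with Atp5 (complex V). Of 23755 rows, 86 met this rule: 39 for complex I, 4 for complex II, 8 for complex III, 18 for complex IV and 17 for complex V. The rule reads gene symbols only, but it was set with earlier results of these data known. The subunits encoded by mitochondrial DNA are not analysed here.

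The respiratory chain passes electrons from NADH (complex I) and succinate (complex II) through complex III to oxygen at complex IV. The proton gradient built on the way drives ATP synthase, complex V. Dendritic cells and macrophages that sense lipopolysaccharide (LPS), the bacterial ligand of TLR4, are known to shift towards glycolysis, and TLR4 signals through the adaptors MyD88 and TRIF.

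PolyA RNA was sequenced from 65 libraries of mouse cells in 19 groups. Bone marrow derived dendritic cells (BMDCs) of the C57BL/6 strain were stimulated with 100 ng/mL LPS for 2 h or 4 h, or left unstimulated (0 h), in MyD88KO cells (3 libraries at each time), cells labelled TrifKO (3 at each time) and wild-type (WT) cells (6, 5 and 6 libraries at 0 h, 2 h and 4 h), all with intact Suv39h1 and Ifnar. In a separate experiment, unstimulated C57BL/6 BMDCs were Suv39h1KO IfnarKO, Suv39h1KO alone, IfnarKO alone or wild type for both, with 3 libraries each and intact MyD88 and Trif in all. RAW264.7, a macrophage line of BALB/c origin whose titles carry the abbreviation DC, was given gRNA_1, gRNA_2 or gRNA_Ctrl and sampled at 0 h and 2 h of LPS, with 3 libraries each. The targets of these guides and the LPS dose for this line are not given in the sources used here, and the ages of the animals and the cytokines of the cultures are not given either. Replicates carry cohort numbers. WT libraries of the LPS experiment came in 2 library sets by their library numbers, set 1 numbered with the MyD88KO libraries and set 2 with the TrifKO libraries, and it is not given whether libraries with the same cohort number come from the same cells, so p-values measure the spread between libraries.

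Gene counts summed to between 36879570 and 95292653 per library (median 54709838). All 12 dendritic cell markers reached 1 CPM (counts scaled to a common library total) in the BMDC libraries (summed 11439 to 22273 CPM), against 4 of 12 in RAW264.7 (104 to 260 CPM). The 8 granulocyte markers summed to 94.0 to 1632 CPM in BMDCs, and to 207 to 559 CPM in WT cells at 4 h against 247 to 633 CPM at 0 h. The 11 macrophage markers summed to 4991 to 9499 CPM in WT cells at 4 h and to 7414 to 12914 CPM at 0 h. Their part in the results was not tested, and in bulk RNA fewer cells of a type and less RNA per cell cannot be told apart. Suv39h1 lay at 0.111 to 0.370 CPM in the 6 Suv39h1KO libraries, against 36.1 to 66.7 CPM in the other 6 of that experiment. Myd88 averaged 58.6 CPM in MyD88KO cells at 0 h, against 89.5 CPM in WT cells at 0 h, and 88.8 CPM in MyD88KO cells at 4 h, against 321 CPM in WT cells at 4 h, and Ifnar1 averaged 145 CPM in IfnarKO cells, against 182 CPM in WT cells. Ticam1, the gene of TRIF, lay at 2.98 and 2.46 CPM in TrifKO replicate 3 at 2 h and 4 h, but between 35.1 and 48.5 CPM in the other 7 TrifKO libraries, against 21.6 to 44.5 CPM in WT libraries. The deleted parts of these genes are not given, so transcript levels alone do not settle these labels; the library labelled TrifKO 0 h replicate 3 had 37.1 CPM and stood apart from the other libraries of its replicate number.

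Of the 86 members, 68 had a promoter in the RefSeq table (GRCm38.p6). Shown are those of Atp5b and Uqcrfs1, called higher in the most LPS comparisons, and of Ndufs8, called lower in 1 of 9. Each is given as the 250 bases before the annotated start, written 5′ to 3′ on the gene's strand. Capitals mark a match on either strand to TGCGCA (the core of an NRF1 site), CCGGAA (an ETS site, as bound by GABP) or ATGGCGG (a YY1 site), none of which overlap each other in these windows.
Atp5b, chr10:128083057-128083306, plus strand: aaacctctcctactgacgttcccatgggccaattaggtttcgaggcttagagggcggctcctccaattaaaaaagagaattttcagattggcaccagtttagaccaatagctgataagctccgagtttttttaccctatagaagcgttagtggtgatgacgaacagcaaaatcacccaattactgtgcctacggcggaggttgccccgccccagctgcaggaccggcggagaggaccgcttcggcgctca
Uqcrfs1, chr13:30545317-30545566, minus strand: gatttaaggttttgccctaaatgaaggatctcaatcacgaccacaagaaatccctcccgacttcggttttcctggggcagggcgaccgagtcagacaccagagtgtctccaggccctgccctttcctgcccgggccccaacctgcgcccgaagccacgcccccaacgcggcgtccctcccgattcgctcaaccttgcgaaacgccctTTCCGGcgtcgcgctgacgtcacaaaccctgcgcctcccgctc
Ndufs8, chr19:3912775-3913024, minus strand: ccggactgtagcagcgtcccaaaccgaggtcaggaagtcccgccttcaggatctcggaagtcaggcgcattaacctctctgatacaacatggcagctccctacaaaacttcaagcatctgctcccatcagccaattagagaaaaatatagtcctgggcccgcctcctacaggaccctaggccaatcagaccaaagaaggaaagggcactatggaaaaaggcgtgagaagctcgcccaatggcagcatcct
NRF1, GABP and YY1 are factors known to drive respiratory genes. TGCGCA was found in 14 of the 68 windows (20.6%), against 6.66% of the 27025 promoters of all genes. CCGGAA was found in 19 windows (27.9%), against 12.2%, and ATGGCGG in 3 windows (4.41%), against 2.19%. Of the printed windows, that of Uqcrfs1 holds 1 CCGGAA, read on either strand, and those of Atp5b and Ndufs8 hold no match to the 3 motifs. The windows of Ndufs7 and Ndufb10, called lower in 3 LPS comparisons each, are not printed. That of Ndufs7 holds a CCGGAA match, and that of Ndufb10 holds no match. A match here describes letters and is not evidence of binding.

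Per kilobase of exon, unstimulated WT BMDCs held most RNA of Cox4i1 (479.7 ± 42.6 CPM per kb, SD, n = 6), the main isoform of a regulatory subunit of complex IV. Atp5b, the catalytic beta subunit of ATP synthase, followed at 435 ± 24.8 CPM per kb, with Cox8a (383 ± 63.4) and Atp5e (380.0 ± 36.1), small subunits of complexes IV and V, next; the ranges of these neighbours overlapped. The median per complex was 48.1 CPM per kb for complex I, 80.8 for complex II, 121 for complex III, 149 for complex IV and 132 for complex V. Cox8c had no count in any library, and Cox7b2, Cox8b and Ndufb11b had 2, 10 and 12 counts in all 65 libraries together. Ndufs5-ps, a pseudogene that the rule admits, had 29.1 CPM in unstimulated WT cells, close to the 30.7 CPM of Ndufs5, and reads of the pair cannot be told apart. After the filter on low counts, 81 members were tested in the LPS experiment with BMDCs, 80 in the Suv39h1 and Ifnar experiment and 81 in RAW264.7. In the LPS experiment with BMDCs, Cox4i2 passed only through the stimulated groups.

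As a share of all gene counts, the respiratory chain subunits of WT BMDCs were lower after LPS. They summed to 9525 ± 1006 CPM at 0 h, 8340 ± 1246 CPM at 2 h and 7114 ± 747 CPM at 4 h (SD, n = 6, 5 and 6). No WT library at 4 h (6269 to 8265 CPM) reached the lowest at 0 h (8584 CPM). Scaled by the trimmed mean of M values (TMM), which aligns the bulk of genes between libraries, the sum was 1.16-fold higher at 4 h than at 0 h. On the TMM scale the libraries overlapped, with 8686 to 10417 at 4 h and 6861 to 9799 at 0 h. The mean total is thus lower on one scale and higher on the other. With library totals in place of TMM factors, the median log2 fold change of all genes shifted by -0.38 at 2 h and -0.64 at 4 h in WT cells, and each fold change below is given on the TMM scale unless library totals are named. The median of members minus the median of all genes does not rest on that choice: it was 0.19 at 2 h and 0.25 at 4 h.

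**Figure D1:**
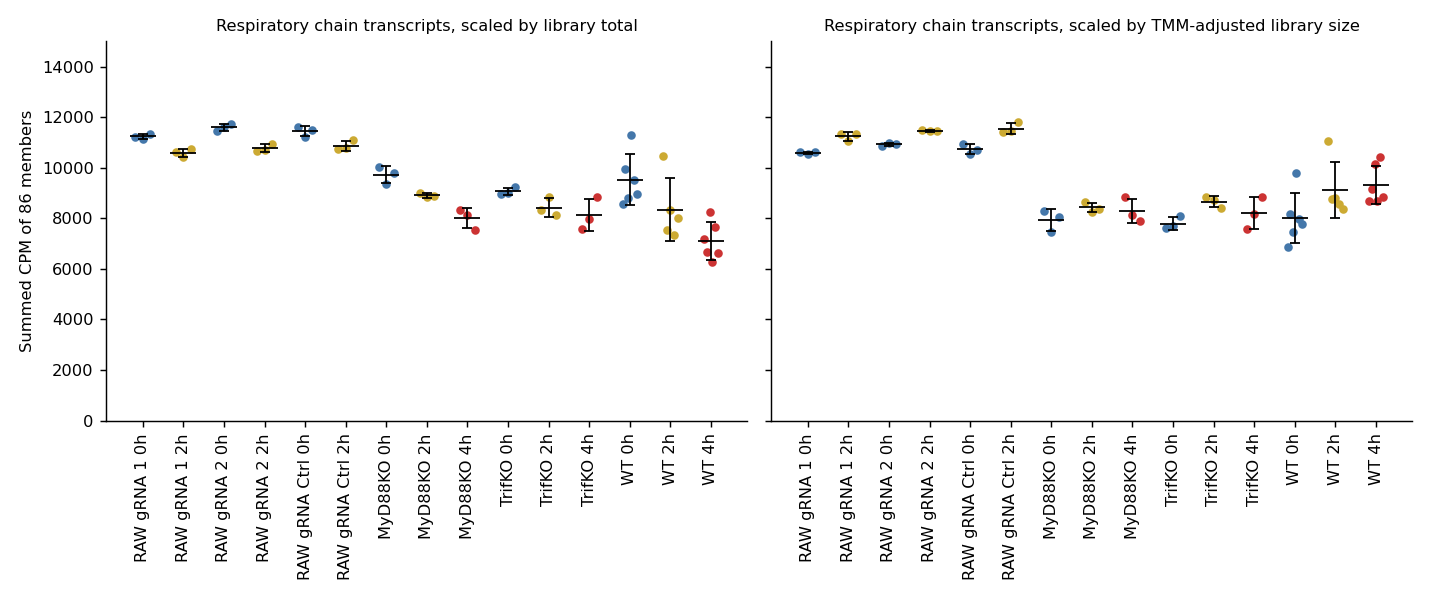
Summed level of the 86 members in each library (points), with the mean and SD of each group (bars), RAW264.7 groups to the left of BMDC groups, coloured by time (0 h blue, 2 h yellow, 4 h red). The left panel gives CPM of library totals and the right panel TMM-scaled CPM, comparable only within an experiment. In WT BMDCs the mean sum is lower at 4 h than at 0 h on the left, where the libraries do not overlap. It is higher on the right, where they do.

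At 4 h, edgeR's quasi-likelihood test at adjusted p 0.05 called 34 of 81 tested members higher and 3 lower in WT cells than at 0 h (TMM; median log2 fold change 0.18). Cox4i2 is among the 34, but it passed the filter on low counts only through the stimulated groups, so its call is no support for a rise. Of all genes, 30% were called higher and 35.1% lower (median -0.07). With library totals 1 member was called higher and 72 lower, against 13.8% and 65.5% of all genes, and 27 members were called in opposite directions on the 2 scalings. Besides Cox4i2, the members called in the same direction on both were Ndufs7, Ndufs8 and Ndufb10, all lower. With replicates as a block, 41 members were called higher and 8 lower on the TMM scale (33.7% and 39.1% of all genes), and 6 and 5 were lower without WT 0 h replicate 3 or WT 4 h replicate 2. At 2 h, 20 members were called higher and 0 lower (21.3% and 24.6% of all genes, with medians of 0.14 and -0.05). Cox4i2 is among the 20, with the same reservation on its filter. Of the 20, 18 were also called higher at 4 h, an overlap not counted over all genes. Within library set 1 alone the WT libraries gave 10 higher and 2 lower at 4 h (25.6% and 27.6% of all genes) and 6 higher and 0 lower at 2 h (14.1% and 12.2%), so the share of members called higher lay below that of all genes. Within library set 2 alone 39 were higher and 3 lower at 4 h (26.6% and 30%) and 16 higher and 0 lower at 2 h (17.6% and 20.4%). The 2 h count was 35 with replicates as a block (25.4% of all genes higher, 30.3% lower), and 37, 12, 13 and 10 without WT 0 h replicate 2, 3 or 5 or WT 2 h replicate 1. With library totals, 1 member was called higher and 35 lower at 2 h (10.1% and 50.3% of all genes).

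Complex I, the entry point for NADH, held the 3 members called lower at 4 h on the TMM scale. With replicates as a block it held 7 of the 8, the other being Cox7a2l in complex IV, and with library totals members of every complex were called lower. Of 37 tested at 4 h, 8 were called higher and 3 lower on the TMM scale with a median log2 fold change of 0.09. Both shares lay below those of all genes (30% and 35.1%). With library totals 35 were called lower, against 65.5% of all genes. These shares of all genes also apply to the complexes below. Ndufs7, which carries the last iron-sulfur cluster before ubiquinone, had 45.8, 45.7, 41.7, 40.9, 43.5 and 44.6 CPM in WT libraries at 0 h. It had 36.8, 28.9, 29.1, 26.5 and 31.1 CPM at 2 h, then 18.4, 24.1, 17.8, 17.5, 18.2 and 18.9 CPM at 4 h. Its 3 time points did not overlap. The log2 fold change at 4 h was -0.55 ± 0.07 (SE; adjusted p = 2.9e-08, edgeR), and -1.19 with library totals.

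Ndufs8, which binds the neighbouring pair of iron-sulfur clusters in the same arm, lay at 30.6 to 50.4 CPM (median 38.5) in WT cells at 4 h, against 64.4 to 90.4 CPM (median 74.8) at 0 h. The ranges did not overlap, and its log2 fold change was -0.31 ± 0.10 (adjusted p = 0.0082), or -0.95 with library totals. Ndufb10, an accessory subunit of the membrane arm, lay at 32.0 to 42.9 CPM at 4 h, against 62.0 to 73.9 CPM at 0 h, with a log2 fold change of -0.18 ± 0.07 (adjusted p = 0.031). DESeq2 did not call Ndufb10 (adjusted p = 0.13). From 2 h to 4 h, Ndufs7 and Ndufs8 were called lower again (-0.41 ± 0.07 and -0.34 ± 0.11), as was Ndufs1 (-0.18 ± 0.07), the large subunit with several iron-sulfur clusters.

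Other subunits of complex I went the other way relative to the bulk of genes. Ndufs4, an accessory subunit whose loss in mice is known to cause a Leigh-like encephalopathy, had 39.99 to 46.7 CPM in WT cells at 4 h and 43.3 to 61.0 CPM at 0 h. Its ranges overlapped in CPM, and its log2 fold change was 0.49 ± 0.08 on the TMM scale (adjusted p = 6.8e-06) and -0.15 with library totals, where it was not called. Ndufa1 and Ndufb6, small membrane-arm subunits, were both at 0.33 on the TMM scale and at -0.30 and -0.31 with library totals.

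In complex II, the succinate dehydrogenase of the citric acid cycle, 1 of 4 members was called at 4 h. Sdhc, a membrane anchor, had a log2 fold change of 0.22 ± 0.08 (-0.42 with library totals). The flavoprotein Sdha was at 0.08 ± 0.07 and was not called.

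In complex III, 4 of 8 members were called higher at 4 h on the TMM scale. Uqcrfs1, the Rieske iron-sulfur protein that hands electrons to cytochrome c1, had 79.3 to 101 CPM (median 91.1) in WT cells at 4 h and 79.4 to 113 CPM (median 90.3) at 0 h. These ranges nearly coincide, and its log2 fold change was 0.62 ± 0.08 on the TMM scale (adjusted p = 8.4e-08) and -0.02 with library totals. Uqcrh and Uqcrb, small subunits of the complex, were at 0.34 ± 0.12 and 0.31 ± 0.09, and at -0.30 and -0.33 with library totals. The core protein Uqcrc2 was at 0.03 ± 0.07 and was not called.

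Complex IV held the largest share of calls, with 12 of 15 tested members, Cox4i2 among them, higher at 4 h on the TMM scale and a median of 0.33. With library totals 10 of the 15 were called lower. Cox7a2, the widely expressed form of a small accessory subunit, had 81.7 to 105 CPM at 4 h, against 87.4 to 134 CPM at 0 h, and its log2 fold change was 0.49 ± 0.10 (-0.15 with library totals). Cox7a1, the heart and muscle form, lay at 1.31 to 2.49 CPM at 4 h, against 1.29 to 2.41 CPM at 0 h (0.56 ± 0.19, and -0.08 with library totals). Cox6c, an accessory subunit, was at 0.41 ± 0.11 (-0.23 with library totals).

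Cox4i2, an isoform of Cox4i1 known from lung and from cells under low oxygen, was the member with the greatest fold change and stayed at a low level. It had 0, 0, 0.0306, 0.0551, 0.0986 and 0.0465 CPM in WT libraries at 0 h (12 counts in all). It had 0.169, 0.441, 0.533, 0.415 and 0.554 CPM at 2 h, then 0.443, 0.523, 0.706, 1.02, 0.987 and 1.02 CPM at 4 h (253 counts in all). Every stimulated library lay above every unstimulated one. Its mean CPM was 20.3-fold higher at 4 h and 10.97-fold higher at 2 h than at 0 h, and the log2 fold change at 4 h fitted with no filter on low counts, which depends on the prior count, was 4.99 ± 0.52. These values are a description, since the gene passed the filter only where it was high. Cox4i2 made up 0.266% of the counts of the Cox4 pair at 4 h, against 0.0109% at 0 h, so the pair's RNA remained almost wholly Cox4i1.

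In complex V, 9 of 17 members were called higher at 4 h on the TMM scale. Atp5b had 671 to 799 CPM (median 708) in WT cells at 4 h and 784 to 915 CPM (median 825) at 0 h, with a log2 fold change of 0.43 ± 0.06 (adjusted p = 1.4e-07) and -0.21 with library totals. Atp5a1, the alpha subunit that forms the catalytic head with Atp5b, was at 0.41 ± 0.08, and -0.23 with library totals. Atp5md, a small membrane subunit of the dimer, was at 0.51 ± 0.10, and -0.13 with library totals. The gamma subunit Atp5c1, the shaft within the head, was at -0.04 ± 0.11 and was not called.

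**Figure D2:**
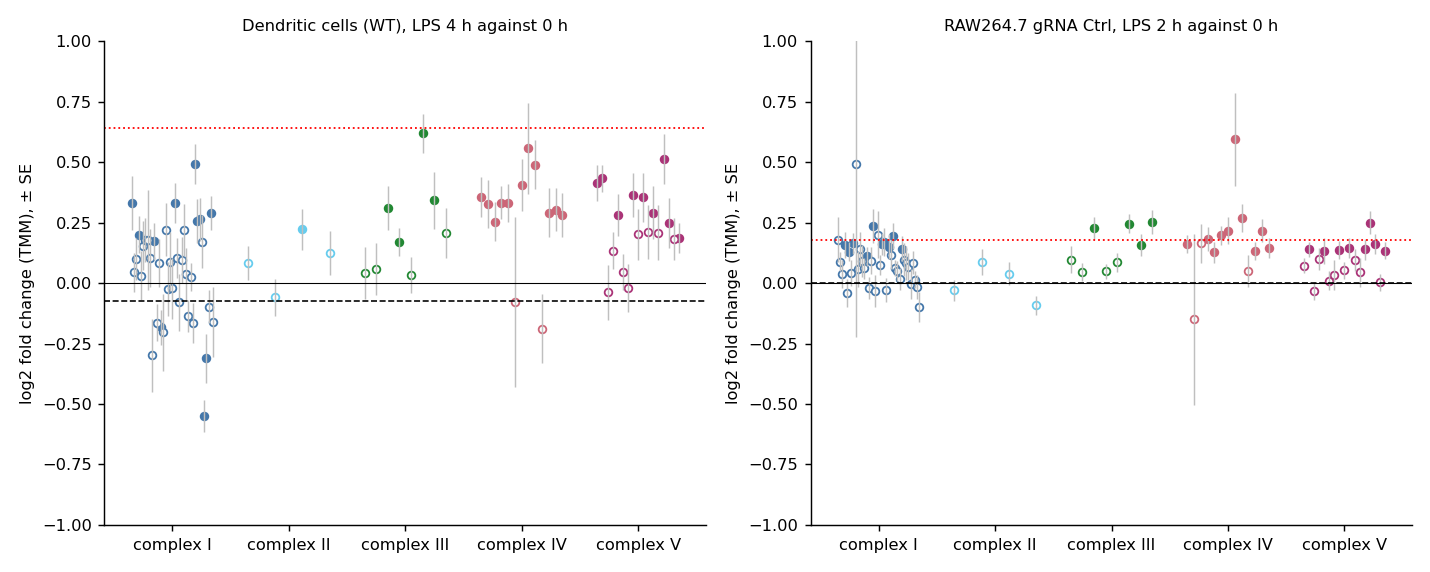
Log2 fold change (TMM scale, bars are SE) of each tested member by complex in WT BMDCs at 4 h against 0 h (left) and in RAW264.7 with gRNA_Ctrl at 2 h against 0 h (right), with adjusted p under 0.05 for filled points. The dashed line is the median of all genes and the dotted red line marks where 0 lies with library totals; members beyond 1 in either direction, such as Cox4i2, are not drawn. In WT BMDCs at 4 h most filled points lie above the dashed line, and the filled points below it are complex I subunits.

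Shares of the members' own counts do not depend on the scaling. Complex I took 24.2% of member counts at 0 h in WT BMDCs, 22.4% at 2 h and 21.4% at 4 h, and no library at 4 h (20.98 to 22.02%) reached those at 0 h (24.01 to 24.58%). Complex V took 38.2%, 39.8% and 40.5% at the same times, with 39.98 to 40.96% at 4 h and 37.54 to 39.01% at 0 h. Complex IV took 21.4%, 21.9% and 22.3%, and complex II 6.34%, 5.93% and 5.81%. Complex I thus held a smaller share and complexes IV and V larger ones, and complex III stayed at 9.90%, 9.87% and 10.003% on average. The same order held in MyD88KO cells, where complex I took 24.8%, 23.3% and 22.4% at 0 h, 2 h and 4 h and complex V 37.6%, 39.4% and 39.95%. In libraries labelled TrifKO complex I took 23.7%, 22.4% and 22%, and complex V 38.4%, 40.02% and 40.2%.

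**Figure D3:**
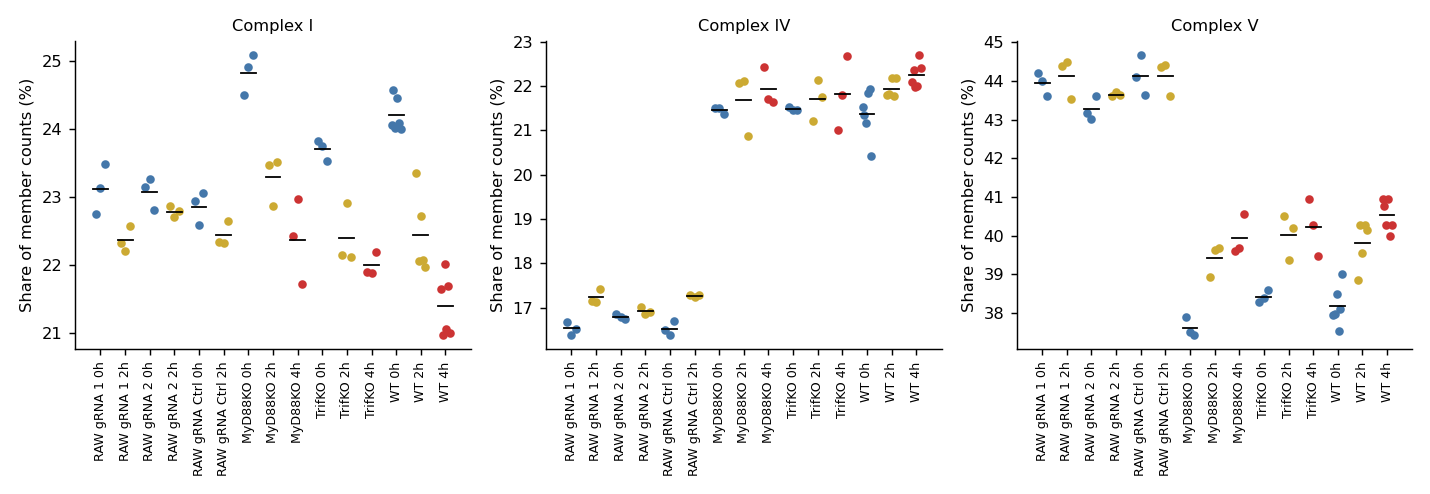
Share of each complex in the summed counts of all 86 members (percent, axes do not start at 0) per library for complexes I, IV and V, with a line at the group mean, RAW264.7 groups to the left of BMDC groups and times coloured 0 h blue, 2 h yellow and 4 h red. In BMDCs the share of complex I is lower and that of complex V higher at 4 h than at 0 h in each labelled genotype; RAW264.7 has less of complex IV and more of complex V.

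Within some gene families, shares of counts shifted. Of the Cox7a family, Cox7a2 took 37.8 ± 3.84% of counts in WT cells at 4 h and 27.4 ± 2.25% at 0 h (SD, n = 6), with no overlap between the groups. Cox7a2l, now known as a factor that links complexes III and IV, took 61.5% at 4 h and 72.1% at 0 h. Of the 3 genes for the identical c subunit of the ATP synthase ring, Atp5g3 took 59.0 ± 1.29% at 4 h and 52.8 ± 1.89% at 0 h. Cox6a2, the muscle form of Cox6a, had 16 counts at 4 h and 55 at 0 h and was not called in WT cells (-1.12 ± 0.61).

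Ndufa4, named for complex I but now placed in complex IV, was not called in WT cells (28.0 to 52.5 CPM at 4 h, against 39.8 to 68.7 CPM at 0 h; log2 fold change 0.18 ± 0.21). Its paralogue AA467197, not a member by the rule, is known in human cells to replace that subunit during inflammation. AA467197 lay at 504 to 1156 CPM in WT cells at 4 h and 131 to 276 CPM at 0 h, with a log2 fold change of 2.53 ± 0.29 (1.87 with library totals). Per exon length the ratio of AA467197 to Ndufa4 was 14.9 ± 8.81 at 4 h and 2.77 ± 1.07 at 0 h. The ranges of this ratio did not overlap, from 7.07 at 4 h against at most 4.14 at 0 h.

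**Figure D4:**
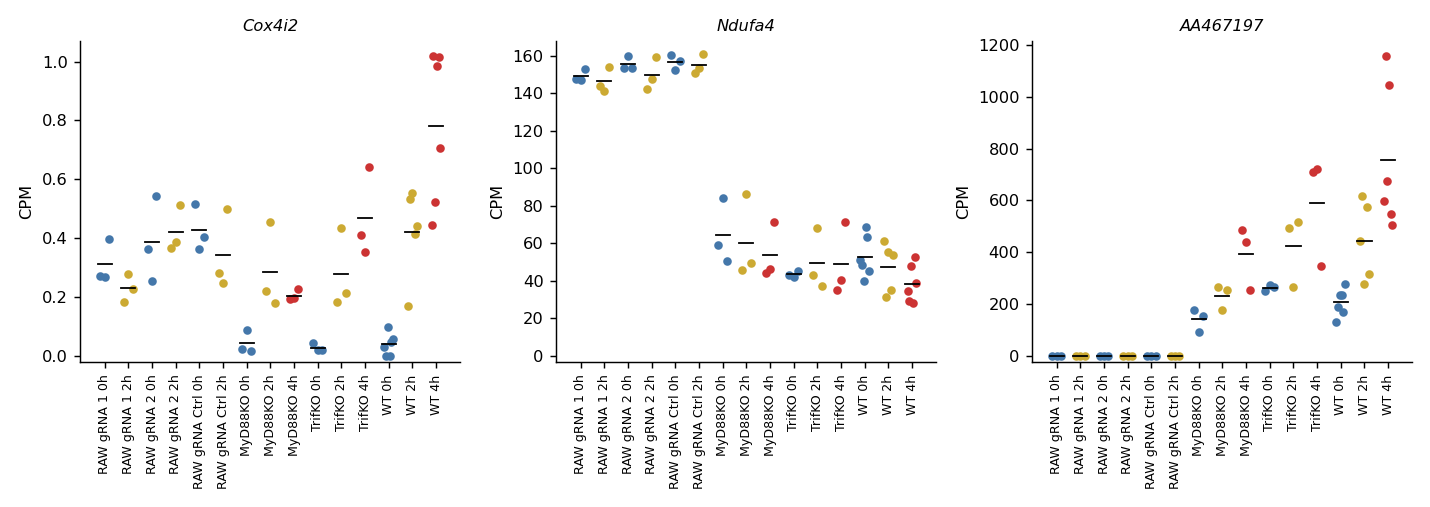
Levels of Cox4i2, Ndufa4 and AA467197 in each library (CPM, linear axes), with a line at the group mean and times coloured 0 h blue, 2 h yellow and 4 h red. Cox4i2 and AA467197 are higher in BMDCs after LPS, while RAW264.7 has more Ndufa4 and almost no AA467197.

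In MyD88KO cells, Ndufs7 and Ndufb10 were lower at 4 h of LPS on both scalings. Of the members, 3 of 81 were called higher and 0 lower at 2 h (8.81% and 7.23% of all genes), and 3 higher and 3 lower at 4 h (17.1% and 17%). The counts were 7 higher at 2 h (14.6% of all genes), and 6 higher and 7 lower at 4 h (22.7% and 25.7%), with replicates as a block. Cox4i2 is again in each count of higher members, with the reservation on its filter. Cox4i2 had 0.192, 0.195 and 0.225 CPM in MyD88KO cells at 4 h and 0.0169, 0.0215 and 0.0856 CPM at 0 h (4.94-fold in mean CPM). Ndufs7 had 29.9, 28.9 and 24.7 CPM at 4 h, against 47.4, 50.5 and 46.1 CPM at 0 h (-0.44 ± 0.09, adjusted p = 0.00058). Ndufb10 (-0.36 ± 0.10) and Ndufa6 (-0.57 ± 0.22), a further accessory subunit of complex I, were lower as well, and these 3 were lower with library totals too. Atp5b (0.25 ± 0.08) and Atp5a1 (0.28 ± 0.11) were called higher on the TMM scale and were at -0.10 and -0.07 with library totals. The 2 h calls were Cox4i2, Cox6a1, the liver form of Cox6a, and Atp5b, and the count was 1 without any one of MyD88KO 0 h replicate 1 or 3 or of the 3 libraries at 2 h. The 4 h count was 3 without MyD88KO 4 h replicate 3. With library totals, 1 member was higher and 38 lower at 4 h (9.4% and 40% of all genes), and at 2 h 1 was higher and 1 lower (4.7% and 16.3%).

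In libraries labelled TrifKO, 4 members were called higher and 0 lower at 2 h (11.3% and 9.39% of all genes), and 4 higher and 2 lower at 4 h (14.4% and 11.6%). The 2 h calls were Uqcrfs1 (log2 fold change 0.33 ± 0.11), Atp5b (0.29 ± 0.08) and Cox6a1 (0.27 ± 0.10), none of them called with library totals, and Cox4i2, with the reservation on its filter. Uqcrfs1 had 100.3, 114 and 114 CPM at 4 h, against 86.5, 83.4 and 90.9 CPM at 0 h. Here the groups did not overlap, and its log2 fold change was 0.56 ± 0.11 on the TMM scale (adjusted p = 0.00049) and 0.33 with library totals, higher on both. Cox4i2 had 0.409, 0.352 and 0.640 CPM at 4 h, against 0.0176, 0.0421 and 0.0192 CPM at 0 h (17.7-fold in mean CPM). Ndufs7 had 27.9, 26.9 and 29.01 CPM at 4 h, against 40.5, 39.5 and 42.4 CPM at 0 h (-0.32 ± 0.09), and Ndufb10 was also lower (-0.29 ± 0.10). Cox5a, a nuclear-encoded accessory subunit of complex IV (0.38 ± 0.14, and 0.15 with library totals), and Atp5b (0.24 ± 0.08, and 0.01 with library totals) were called higher on the TMM scale. Without the library labelled TrifKO 0 h replicate 3, 2 members were higher and 0 lower at either time, and Ndufs7 and Ndufb10 were no longer called (adjusted p = 0.052 and 0.081). The 4 h count was 3 without replicate 2 at 0 h or at 4 h, and the 2 h count was 1 or 2 without any 1 of its 6 libraries. Without the stimulated replicate 3 of the same time, whose Ticam1 was low, 2 members were called higher and 0 lower at 2 h, and 3 higher and 1 lower at 4 h. With library totals the counts at 4 h were 2 higher and 10 lower (7.09% and 21.4%), and at 2 h 1 higher and 4 lower (5.34% and 22.8%).

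No response of a member to LPS was called different between the knockouts and WT cells by edgeR on the TMM scale with all WT libraries and no block, but other settings called some at 4 h. These differences share the WT libraries. For MyD88KO minus WT, 0 of 81 members passed at 2 h (0.0553% of all genes called higher and 0.387% lower) and 0 at 4 h (2.45% and 4.39%), with 0 and 6 at an unadjusted p under 0.05. DESeq2 called 0 at 2 h and at 4 h 1, Uqcrfs1 (-0.40, adjusted p = 0.043). With library totals 0 were called at 2 h (0.104% and 0.187% of all genes), and at 4 h Ndufs7 (0.41) and Sdha (0.36) were called higher (12.3% and 2.01% of all genes). With replicates as a block, 4 members were called with a smaller response in MyD88KO cells at 4 h (9.4% of all genes higher, 10.3% lower). They were Ndufs4 (-0.38), Uqcrfs1 (-0.38), Cox7a2 (-0.43) and Cox4i2 (-2.37), the last with the reservation on its filter. For libraries labelled TrifKO minus WT, 0 passed at 2 h (0.138% and 1.26%) and 0 at 4 h (9.01% and 9.33%), with 0 and 3 at an unadjusted p under 0.05, and DESeq2 called 0 at 2 h and 2 at 4 h, Ndufs4 (-0.41, adjusted p = 0.027) and Atp5b (-0.25, adjusted p = 0.016). With library totals 0 were called at 2 h (0.193% and 1.04%), and at 4 h 12 were called higher and 0 lower (35.3% and 5.2%), with Ndufs7 at 0.64 against 0.23 on the TMM scale. The block gave 3 lower at 4 h (17.4% of all genes higher, 15.5% lower), Ndufs4 (-0.36), Sdhc (-0.28) and Cox7a2 (-0.38), each above 0 with library totals. Against the WT libraries of set 2 alone, 7 members were called lower at 4 h for MyD88KO (5.86% of all genes higher, 6.6% lower) and 6 for TrifKO (10.7% and 10.1%). Against the same set with the block, 2 were higher and 11 lower for TrifKO. Without WT 0 h replicate 2 the 4 h counts were 3 for MyD88KO and 2 for TrifKO, and without WT 4 h replicate 5 the TrifKO count was 1. Shares of all genes are not given for set 2 with the block or for fits without 1 library. Their counts are thus not read as particular to members. Before LPS, no member was called in MyD88KO cells (0.0138% of all genes higher, 0.0276% lower) or in those labelled TrifKO (0% and 0%) against WT, with 0 members at an unadjusted p under 0.05 in either and 0 by DESeq2. From 2 h to 4 h in WT cells, 3 members were called higher and 3 lower (18.6% and 17.1%). The counts were 3 and 9 with the block (25.1% and 24.3%), and 10 in all without WT 2 h replicate 1. The higher ones were Cox4i2 (1.17 ± 0.43), with the reservation on its filter, Uqcrfs1 (0.35 ± 0.08) and Ndufs4 (0.25 ± 0.09). Of these, Ndufs4 was at -0.01 with library totals. On that scale 0 were higher and 39 lower between these times (9.6% and 36.7%). On the TMM scale, WT libraries of set 1 alone gave 0 higher and 1 lower (10.7% and 9.21%), and those of set 2 alone 12 higher and 2 lower (16.2% and 12.7%).

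In RAW264.7 with gRNA_Ctrl, 33 of 81 members were called higher and 0 lower after 2 h of LPS on the TMM scale (26.3% and 25.3% of all genes), with a median log2 fold change of 0.10 against 0.00 for all genes. With library totals 1 was higher and 25 lower (15.3% and 43.3%), and the median of all genes shifted by -0.18. The counts were 25 higher and 0 lower with gRNA_1 (26.2% and 25.1%) and with gRNA_2 (26.3% and 24.6%), the gRNA_2 count being 16 without its 0 h replicate 1. Together 38 members were called with any guide and 17 with all 3. These overlaps were not counted over all genes, so they are not set against a background. Each of these comparisons has its own 0 h libraries. Fold changes were small: Uqcrfs1 was at 0.25 ± 0.04 (0.07 with library totals), with 108, 106 and 106 CPM at 2 h, against 105, 98.2 and 102 CPM at 0 h. Cox6a2 was higher on both scalings, with 1.03, 0.778 and 1.36 CPM at 2 h, against 0.281, 0.706 and 0.332 CPM at 0 h (1.47 ± 0.42). At this low level it was not called with gRNA_1 or gRNA_2. Ndufs7 was at 0.00 ± 0.06 and Cox4i2 at -0.15 ± 0.35, and neither was called in this line. With gRNA_Ctrl, complex I took 22.4% of member counts at 2 h and 22.9% at 0 h, with overlapping libraries, and complex IV 17.3% at 2 h and 16.5% at 0 h, with none. With gRNA_1 the shares were 22.4% at 2 h and 23.1% at 0 h for complex I and 17.2% at 2 h and 16.5% at 0 h for complex IV, with no overlap in either. With gRNA_2 they were 22.8% at 2 h and 23.1% at 0 h for complex I and 16.9% at 2 h and 16.8% at 0 h for complex IV, with overlap in both.

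Few members were called between guides. At 0 h, gRNA_1 had 0 members higher and 1 lower than gRNA_Ctrl (1.09% and 1.22% of all genes). This was Uqcrq, a small subunit of complex III, with 83.4, 86.1 and 86.5 CPM against 112, 105 and 110 CPM with gRNA_Ctrl (-0.35 ± 0.05, adjusted p = 0.00053). The groups did not overlap, and the count was 2 without gRNA_Ctrl 0 h replicate 2. With gRNA_2, 0 were called (2.62% and 1.95%), 4 had an unadjusted p under 0.05, DESeq2 called 0, and 1 was called without gRNA_Ctrl 0 h replicate 3. The response to LPS differed from that of gRNA_Ctrl for 0 members with gRNA_1 and 0 with gRNA_2 (0.00765% and 0% of all genes in either), with 0 and 4 at an unadjusted p under 0.05 and 0 by DESeq2.

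RAW264.7 and BMDCs differed in the levels of some members. Cell line, strain and experiment cannot be told apart in this comparison, which is a description of CPM ranges without a test. Of 79 members with at least 1 CPM, the 3 unstimulated gRNA_Ctrl libraries lay above all 9 unstimulated WT BMDC libraries for 24 (41.1% of all genes) and below them for 7 (33%). Both shares of members thus lay below those of all genes. The median ratio was 1.14 for members and 1.08 for all genes. Ndufa4 averaged 157 CPM in RAW264.7 and 53.1 CPM in BMDCs, a 2.95-fold ratio, while AA467197 had no count in these 3 RAW264.7 libraries. Ndufs1 stood at 2.14-fold and Atp5b at 1.98-fold (1633 and 827 CPM). On the low side Ndufa3 and Ndufa1 were at 0.460-fold and 0.462-fold, Cox7a2l at 0.561-fold, and Cox6b2, the testis form of Cox6b, had 3 counts in RAW264.7, with a mean of 0.0228 CPM against 0.771 CPM in BMDCs. The median ratio over single members was 1.15 for complex I, 1.31 for complex II, 1.22 for complex III, 1.04 for complex IV and 1.00 for complex V. Summed CPM of complex V was 1.39-fold that of WT BMDCs at 0 h in the LPS experiment, without overlap. Against WT BMDCs of the Suv39h1 and Ifnar experiment it was 1.48-fold, also without overlap. For complex IV these ratios of sums were 0.928 and 1.06, with overlap in both. Within BMDCs, the ratio of the 2 unstimulated WT groups of separate experiments ran from 0.728 to 1.13 over these members.

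Loss of Suv39h1, a histone H3K9 methyltransferase, or of the type I interferon receptor Ifnar left no member past the threshold in unstimulated BMDCs. Members summed to 9631 ± 1428 CPM in Suv39h1KO IfnarKO, 8961 ± 673 CPM in Suv39h1KO, 8878 ± 740 CPM in IfnarKO and 8792 ± 1379 CPM in WT cells (SD, n = 3 each), with overlapping ranges. For Suv39h1KO against WT, 0 of 80 were called (0.153% of all genes higher, 0.0556% lower), 1 had an unadjusted p under 0.05 and DESeq2 called 0. For Suv39h1KO IfnarKO against IfnarKO the background was 0.174% and 0.0348%, with 2 members at an unadjusted p under 0.05. Here 68 of 80 members had a log2 fold change above 0, with a median of 0.16 against 0.01 for all genes. These members share libraries and are not independent. The summed CPM of all members had a median of 8883 and a highest value of 11278 in Suv39h1KO IfnarKO. In IfnarKO the median was 8857 and the highest value 9628. With replicates as a block 13 members had an unadjusted p under 0.05 and 0 were called (0.862% and 0.494%). IfnarKO against WT had 0.00695% and 0.118%, Suv39h1KO IfnarKO against Suv39h1KO 0.00695% and 0.153%, and the difference of the Suv39h1 effects 0% and 0%, each with 0 members by edgeR, DESeq2 and an unadjusted p under 0.05. The members within 20 Mb of a targeted gene were not called: Atp5o, 0.415 Mb from Ifnar1 on chromosome 16, was at 0.10 ± 0.19 in IfnarKO against WT, and Ndufa11, 0.441 Mb from Ticam1 on chromosome 17, at -0.04 ± 0.11 in libraries labelled TrifKO at 0 h, against WT at 0 h.

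Genes that build, regulate and feed the chain were described as lists in WT cells at 4 h. Of 50 assembly factors, 11 were called higher and 26 lower (30% and 35.1% of all genes; median log2 fold change -0.33), and 5 and 43 with library totals (13.8% and 65.5%). These shares of all genes hold for each of the lists. Sco1 (1.87 ± 0.12), which delivers copper to complex IV, and Cox18 (1.77 ± 0.12), which inserts one of its core subunits, were higher, at 1.21 and 1.13 with library totals. Lyrm7 (-2.08 ± 0.35), which loads the Rieske protein Uqcrfs1 into complex III, and Ndufaf4 (-1.45 ± 0.17), an assembly factor of complex I, were lower. Of 16 regulators of mitochondrial biogenesis, 3 were higher and 10 lower (0 and 15 with library totals). Ppargc1b, a coactivator of respiratory genes, lay at 0.231 to 2.06 CPM at 4 h, against 2.54 to 12.4 CPM at 0 h (-2.24 ± 0.50), and the mitochondrial helicase Twnk (-1.78 ± 0.23) and RNA polymerase Polrmt (-1.02 ± 0.13) were lower too.

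Of 78 mitochondrial ribosomal proteins, 13 were higher and 32 lower (2 and 74 with library totals), the lower share being near that of all genes on the TMM scale, from Mrps35 (-1.03 ± 0.14) to Mrpl39 (0.97 ± 0.08). The 17 genes of the citric acid cycle and pyruvate dehydrogenase split into 5 higher and 6 lower (1 and 15 with library totals), near the shares of all genes on the TMM scale, with citrate synthase Cs at 0.89 ± 0.07 and fumarase Fh1 at -0.65 ± 0.12. Of 20 carriers and modulators, 7 were higher and 7 lower (5 and 15 with library totals), also near them on the TMM scale. Cytochrome c, Cycs, lay at 78.0 to 104 CPM at 4 h, against 52.7 to 73.5 CPM at 0 h (1.15 ± 0.12), and Acod1, which makes the complex II inhibitor itaconate, at 1265 to 3006 CPM at 4 h, against 40.2 to 232 CPM at 0 h (4.88 ± 0.56).

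In libraries labelled TrifKO, the 4 h response differed from WT for 10 assembly factors upwards and 6 downwards, and for 6 regulators upwards and 1 downwards (29 and 4, and 11 and 0, with library totals). Of all genes 9.01% and 9.33% differed, or 35.3% and 5.2% with library totals. Sco1 lay at 11.4 to 14.1 CPM at 4 h in libraries labelled TrifKO, against 22.1 to 32.6 CPM in WT cells at 4 h, a difference in response of -1.59 ± 0.20 (adjusted p = 1.1e-06). Cox18 (-1.36 ± 0.20) differed in the same direction, and Ndufaf4 (1.23 ± 0.29), Twnk (1.13 ± 0.39) and Polrmt (0.99 ± 0.23) in the other, each on both scalings. In RAW264.7 with gRNA_Ctrl, 6 assembly factors were called higher and 11 lower at 2 h on the TMM scale (3 and 29 with library totals), against 26.3% and 25.3% of all genes (15.3% and 43.3%), and Acod1 rose by 7.15 ± 0.26 on the log2 scale.

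**Figure D5:**
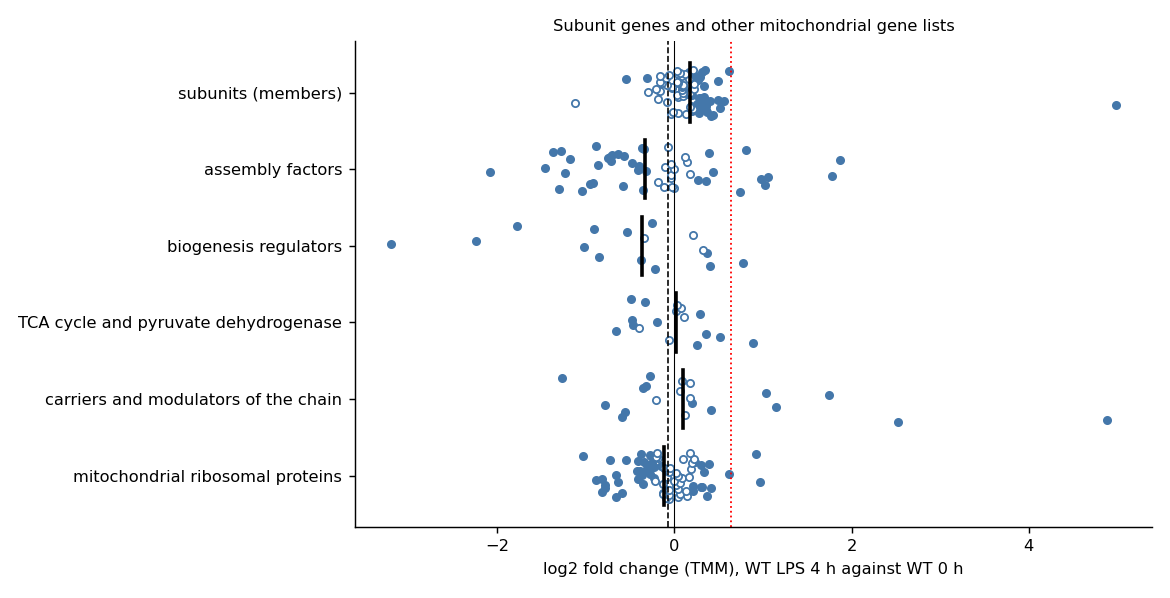
Log2 fold change (TMM scale) of each tested gene of the members and of 5 lists of related genes in WT BMDCs at 4 h against 0 h, with filled points at adjusted p under 0.05 and bars at the medians. The dashed line is the median of all genes and the dotted red line marks where 0 lies with library totals. In WT BMDCs at 4 h the median of the members is 0.18 and that of the assembly factors -0.33.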

How the data were processed

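PolyA libraries (TruSeq Stranded mRNA, per the labels' protocols) gave raw counts per gene symbol, deposited by the authors as 1 table of 23755 rows. STAR, HOMER, DESeq2 and mm10 stand in the submitters' processing notes, and whether the counting used strand is not given in the sources used here. The table of transposable elements was not used here.

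Counts were tested with edgeR 4.0.16 (R 4.3.3, limma 3.58.1) by quasi-likelihood, with filterByExpr, TMM scaling, 1 fit per experiment, 1 term per group and Benjamini-Hochberg adjustment over all genes of the fit at 0.05, after a check on simulated data. The genes tested were 14386 for the Suv39h1 and Ifnar experiment, 14475 for the LPS experiment and 13078 for RAW264.7. SE is the log2 fold change divided by the square root of F. CPM uses library totals. DESeq2 1.42.0, library totals, other filters and sample sets, library set terms, replicate blocks and leave-one-out were alternatives. Of 88 replicate pairs, 0 were alike within sampling noise.

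Same-numbered libraries deviated together (lowest correlation over 0.1) in several comparisons, and the labels call these numbers cohorts. They were the Suv39h1 and Ifnar comparisons (at least 0.268), WT (at least 0.137) and MyD88KO (at least 0.484) responses and gRNA_2 (0.128). MyD88KO and WT libraries at 0 h also deviated together across genotypes (at least 0.152). The main fit does not use this pairing. Fits with replicates as a block do, and their counts are given as an alternative.

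Named genes were, per comparison and complex, up to 3 called members with the greatest change in each direction, isoform sets, members within 20 Mb of a targeted gene, and up to 4 genes per list; other genes named with values were chosen after their values were seen. Members and lists were chosen with earlier results of these data known. Exon lengths came from GENCODE M21 and promoters from RefSeq.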

Additional observations from a re-analysis of the deposited data

Results flagged for a closer look

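Of 147 sets of values, each over 1 group of 4 to 6 libraries, 19 had 1 library far from the others. Chance gives about 1 in 20 for a single set, but these sets share the same libraries and are not independent. The 19 are thus not set against that rate. WT 2 h replicate 1 was the high library for 13 of the 19. Its complex III sum was 1071 CPM, against 732 to 793 CPM in the other WT libraries at 2 h. Its Uqcrh and Uqcrb, small complex III subunits, were at 232 CPM (others 139 to 157) and 119 CPM (79.3 to 86.5). In complex IV, Cox7a2 was at 134 CPM (87.6 to 93.8), Cox7c at 142.9 CPM (89.3 to 98.8), Cox8a at 256 CPM (186 to 196) and Cox6b1 at 232 CPM (176 to 189). In complex I, Ndufa1 was at 104 CPM (62.1 to 69.3), Ndufc2 at 68.0 CPM (43.1 to 49.99), Ndufs4 at 55.5 CPM (39.4 to 42.7) and Ndufa12 at 38.6 CPM (29.9 to 32.0). Sdhc was at 90.9 CPM (65.9 to 72.5) and Atp5mpl, a small subunit of complex V, at 98.1 CPM (64.6 to 70.8). All 13 values lay above the other 4 libraries, and without this library 9 members were called higher and 1 lower at 2 h.

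WT 0 h replicate 2 was high for Uqcrh at 243 CPM (others 162 to 188), Ndufc2 at 83.6 CPM (53.9 to 64.5) and Ndufs1 at 86.6 CPM (71.4 to 76.9). Ndufa7 was low in WT 0 h replicate 3 at 69.7 CPM (80.1 to 85.1). Ndufs7 was high in WT 4 h replicate 2 at 24.1 CPM (17.5 to 18.9), which still lay below every WT library at 2 h. The complex III share was low in WT 4 h replicate 1 at 9.50% (9.98 to 10.3%).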

How the results depend on the processing

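Of 88 single-gene values, scaling by library totals reversed the direction of 36, weakened 31 and left 21 the same. With library totals in place of TMM, members called numbered 36 in WT cells at 2 h, 73 in WT cells at 4 h, 39 in MyD88KO cells at 4 h, 5 and 12 in libraries labelled TrifKO at 2 h and 4 h, 39 between 4 h and 2 h in WT cells, and 26, 31 and 36 in RAW264.7 with gRNA_Ctrl, gRNA_1 and gRNA_2, most of them lower. Response differences at 4 h gave 2 calls for MyD88KO and 12 for TrifKO. These log2 fold changes turned negative with library totals. In WT cells at 2 h they were Ndufb6 -0.13, Ndufs4 -0.14, Uqcrfs1 -0.11, Uqcrc1 -0.17, Cox5b -0.018, Atp5md -0.0080, Atp5b -0.030 and Atp5a1 -0.083. In WT cells at 4 h they were Ndufs4 -0.15, Ndufa1 -0.30, Ndufb6 -0.31, Sdhc -0.42, Uqcrfs1 -0.025, Uqcrh -0.30, Uqcrb -0.33, Cox7a1 -0.079, Cox7a2 -0.15, Atp5md -0.13, Atp5b -0.21 and Atp5a1 -0.23. In MyD88KO cells at 4 h Atp5a1 was at -0.066 and Atp5b at -0.099, and Ndufs4 was at -0.014 between 4 h and 2 h in WT cells. In RAW264.7, gRNA_Ctrl had Ndufb7 -0.0094, Atp5mpl -0.017 and Atp5j -0.034, gRNA_1 had Ndufs4 -0.027, Ndufa4 -0.027, Atp5pb -0.021 and Atp5j -0.030, and gRNA_2 had Ndufa12 -0.0093, Cox7c -0.0050, Cox6b1 -0.020, Cox7a2 -0.023, Atp5l -0.015 and Atp5mpl -0.023.

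DESeq2 called 31 members in WT cells at 2 h, and 1 and 2 response differences at 4 h for MyD88KO and TrifKO. With the replicate block the counts were 35 in WT cells at 2 h, 7 and 13 in MyD88KO cells at 2 h and 4 h, 8 in libraries labelled TrifKO at 2 h, 12 between 4 h and 2 h in WT cells, 4 and 3 response differences at 4 h for MyD88KO and TrifKO, 3 for gRNA_1 against gRNA_Ctrl and 1 for gRNA_2 against it; the block left the side of the threshold of all 88 single-gene values as it was. In libraries labelled TrifKO and in the other RAW264.7 comparisons the numbers did not pair the libraries (lowest correlation -0.264 and 0.0171).

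Without the filter the counts were 1 in MyD88KO and 2 in libraries labelled TrifKO at 2 h and 15 with gRNA_2. With only the compared groups they were 11 in WT cells at 2 h, 0 and 3 in MyD88KO cells at 2 h and 4 h, and 9 and 6 in libraries labelled TrifKO. WT libraries of set 1 gave 6, 12 and 1 at 2 h, at 4 h and between them, and set 2 gave 14 between them and 7 and 6 response differences at 4 h for MyD88KO and TrifKO. The knockout's own library set with the replicate block, added after the data were seen, gave 1 in MyD88KO cells at 2 h, 15 and 12 in libraries labelled TrifKO at 2 h and 4 h, and 13 TrifKO response differences at 4 h. The cause of these differences was not tested. Shares of all genes are not given for fits without the filter, with only the compared groups or with the knockout's own set. Their counts are thus not set against a background.

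Leaving out 1 library at a time, the count ran from 10 to 37 in WT cells at 2 h and 35 to 45 at 4 h, from 1 to 3 and 3 to 7 in MyD88KO cells, from 1 to 2 and 2 to 4 in libraries labelled TrifKO, and from 4 to 10 between 4 h and 2 h. It ran from 25 to 32, 17 to 27 and 16 to 22 with gRNA_Ctrl, gRNA_1 and gRNA_2, from 1 to 2 and 0 to 1 for gRNA_1 and gRNA_2 against gRNA_Ctrl, and from 0 to 3 and 0 to 2 for the 4 h response differences of MyD88KO and TrifKO, and was 0 to 0 elsewhere. Of single-gene values, 601 stayed on their side of the threshold and 103 did not. At these depths Cox8c, Cox7b2, Cox8b and Ndufb11b were too low to compare.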
